A study of Mus musculus with 15 samples.

Results

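The genes described here are 8 genes of catecholamine synthesis, catecholamine uptake or neuronal identity, grouped here as C1 neuron genes. They were matched by gene name among the 55421 genes of the count table, and all 8 passed the filter on low counts, more than 1 CPM (counts scaled to library size) in at least 1 library. Pnmt passed it in WT mice given DOCA-salt alone. Th (tyrosine hydroxylase), Dbh (dopamine beta-hydroxylase) and Pnmt (phenylethanolamine N-methyltransferase) encode enzymes of the pathway from tyrosine to adrenaline. Gch1 (GTP cyclohydrolase) and Spr (sepiapterin reductase) encode the first and the last enzyme of tetrahydrobiopterin synthesis. Slc6a2 encodes the noradrenaline transporter, and Phox2a and Tfap2b encode transcription factors.

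C1 neurons are the adrenaline-synthesizing cells of the rostral ventrolateral medulla (RVLM), and many of them project to the sympathetic preganglionic neurons of the spinal cord, through which they raise blood pressure. Tyrosine hydroxylase makes L-DOPA from tyrosine with tetrahydrobiopterin as its cofactor, aromatic amino acid decarboxylase turns L-DOPA into dopamine, dopamine beta-hydroxylase makes noradrenaline inside vesicles, and PNMT methylates it to adrenaline. Tetrahydrobiopterin is also the cofactor of tryptophan hydroxylase, so Gch1 and Spr serve serotonergic neurons as well.

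RNA was sequenced from bilateral RVLM punches of mice with a floxed allele of Atp6ap2, the gene of the prorenin receptor (PRR), at 12 to 14 weeks of age. An AAV with Cre and GFP gave PRR RVLM-Null mice and an AAV with GFP alone gave mice called WT, which carry the floxed allele too. The 4 groups were 3 PRR RVLM-Null and 4 WT libraries after 13 days of DOCA-salt hypertension (a pellet of 50 mg deoxycorticosterone acetate with 0.15 M NaCl to drink), labelled PRRf/f, and 4 PRR RVLM-Null and 4 WT libraries at baseline, labelled PRRf/y. The methods text of the study gives the sizes of the DOCA-salt groups the other way round, and the labels were followed, so each comparison with a DOCA-salt group rests on them. Virus injection preceded DOCA-salt by at least 3 weeks, and baseline punches were taken 3 weeks after it from a separate cohort, so cohort, allele label and DOCA-salt cannot be told apart. Cre acts only in the cells the virus reached around the injection, while a punch holds every cell of the tissue, and in such bulk samples fewer cells of a type and less RNA per cell cannot be told apart.

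Depth was 19053970 to 30504796 counts per library. Mitochondrial rRNA took 20.3% to 28.8% of the counts at baseline and 2.42% to 5.84% in 6 DOCA-salt libraries, and 19.1% in the remaining one, labelled replicate 3 of the PRR RVLM-Null DOCA-salt group. Atp6ap2, the targeted gene, was at 90.2, 89.6 and 145 CPM in PRR RVLM-Null mice given DOCA-salt, the last in that same library. In WT mice given DOCA-salt it was at 134 to 154 CPM, so that library was in the WT range. A count over the whole gene also holds reads outside the floxed exon 2. At baseline Atp6ap2 was at 106 to 126 CPM in PRR RVLM-Null mice and 114 to 139 CPM in WT mice. These ranges overlapped and Atp6ap2 passed in none of the 5 comparisons, so its level cannot settle the label of a library. The labels call the mice female, but 6 of 15 libraries had a male pattern of sex-linked genes, spread over the 4 groups. Results that rest on the library labelled replicate 3 are given with and without it. Without it the PRR RVLM-Null DOCA-salt group holds replicates 1 and 2 alone. It had the most Tfap2b, Gch1 and Pnmt of its group, so leaving it out lowers the group mean of these genes. A smaller p without it is therefore not a cleaner test.

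Promoters of 6 of the 8 genes were found in RefSeq's table on GRCm38.p6 (Th, Dbh, Phox2a, Tfap2b, Gch1 and Spr). The 250 bases before the start are printed for the 4 of them whose mRNA was higher in WT mice given DOCA-salt, since these members rose in the same comparison. Capitals mark the cAMP response element TGACGTCA and the homeodomain core ATTA on either strand, where TAAT is the same core on the other strand. The Th window is chr7:142899996-142900245 on the minus strand, the Dbh window chr2:27165257-27165506 on the plus strand, the Tfap2b window chr1:19211804-19212053 on the plus strand and the Gch1 window chr14:47189414-47189663 on the minus strand.
Th: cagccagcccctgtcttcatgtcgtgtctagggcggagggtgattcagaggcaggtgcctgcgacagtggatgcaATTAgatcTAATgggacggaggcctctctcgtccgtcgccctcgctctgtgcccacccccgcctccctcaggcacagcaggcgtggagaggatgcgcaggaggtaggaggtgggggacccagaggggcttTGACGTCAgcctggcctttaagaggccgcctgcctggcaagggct
Dbh: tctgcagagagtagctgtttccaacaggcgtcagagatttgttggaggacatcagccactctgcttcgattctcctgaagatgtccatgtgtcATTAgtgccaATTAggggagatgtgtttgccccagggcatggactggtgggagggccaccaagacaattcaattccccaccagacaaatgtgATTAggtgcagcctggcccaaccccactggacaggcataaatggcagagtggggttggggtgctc
Tfap2b: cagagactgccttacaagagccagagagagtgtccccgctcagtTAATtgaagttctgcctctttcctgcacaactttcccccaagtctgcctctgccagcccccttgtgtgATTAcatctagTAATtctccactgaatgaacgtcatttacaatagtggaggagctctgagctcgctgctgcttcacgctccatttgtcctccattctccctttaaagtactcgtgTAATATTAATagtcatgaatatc
Gch1: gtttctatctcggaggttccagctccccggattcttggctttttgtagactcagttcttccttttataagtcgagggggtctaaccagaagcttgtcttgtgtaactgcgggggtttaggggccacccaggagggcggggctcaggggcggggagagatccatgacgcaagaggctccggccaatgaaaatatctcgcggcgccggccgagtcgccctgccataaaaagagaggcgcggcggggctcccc

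Th holds TGACGTCA from -45 to -38, counted back from the base before the start, a motif found in 1.55% of 32851 windows of the same length. None of the other 5 windows holds it. The homeodomain core, the kind of sequence that homeodomain factors such as PHOX2A bind, occurs 3 times in Dbh, of which 2 copies lie at -157 to -154 and -147 to -144, 2 times in Th and 6 times in Tfap2b, where 2 of the 6 overlap by 2 bases. It occurs 1 time in Spr and is absent from the Phox2a and Gch1 windows. At least 1 copy is in 54.9% of all windows and at least 3 are in 17.3%, so its presence is common. GCCNNNGGC, a sequence bound by AP-2 factors, the family of Tfap2b, was also searched on both strands and is in none of the 6 windows, against 13.7% of all windows.

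On GRCm38 the genes lie on separate chromosomes apart from Th (chr7:142892752-142931128, minus strand, up to 13 exons) and Phox2a (chr7:101818313-101822726, plus strand, up to 3 exons). Dbh is at chr2:27165233-27183200 on the plus strand, Pnmt at chr11:98386450-98388181 on the plus strand, Slc6a2 at chr8:92960079-93001667 on the plus strand, Tfap2b at chr1:19208914-19238576 on the plus strand, Gch1 at chr14:47153895-47189413 on the minus strand and Spr at chr6:85130176-85137766 on the minus strand. By these Gencode spans the Th, Dbh and Tfap2b windows printed above lie within the gene, because the RefSeq start used for the windows is a different one. The end of Phox2a overlaps Inppl1 on the opposite strand, and 2 processed pseudogenes lie within Gch1. The setting by which strand was counted is not given in the sources used here, so the counts of Phox2a and Gch1 are less certain than the others.

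The first comparison asked how DOCA-salt hypertension altered these genes in mice with intact PRR. Th, Dbh, Pnmt, Gch1 and Tfap2b rose and Spr fell relative to all protein-coding genes (though not with all counts of a library as its size), while Slc6a2 and Phox2a did not pass the test. The test was edgeR's quasi-likelihood test over 14852 genes, and a gene passed where its p, adjusted by Benjamini-Hochberg, was 0.05 or less. Pnmt is counted apart, because it passed the filter on low counts through the DOCA-salt libraries of this comparison alone. Of the other 7 genes, 4 rose and 1 fell, beside 5.48% of all genes that rose, 6.12% that fell and 11.6% in either direction. The median log2 fold change of these 7 was 1.81, against -0.0009 for all genes. The libraries of WT mice given DOCA-salt and at baseline did not overlap for 5 of the 8 (Th, Dbh, Tfap2b, Gch1 and Spr), against 18.6% of all genes.

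**Figure D1:**
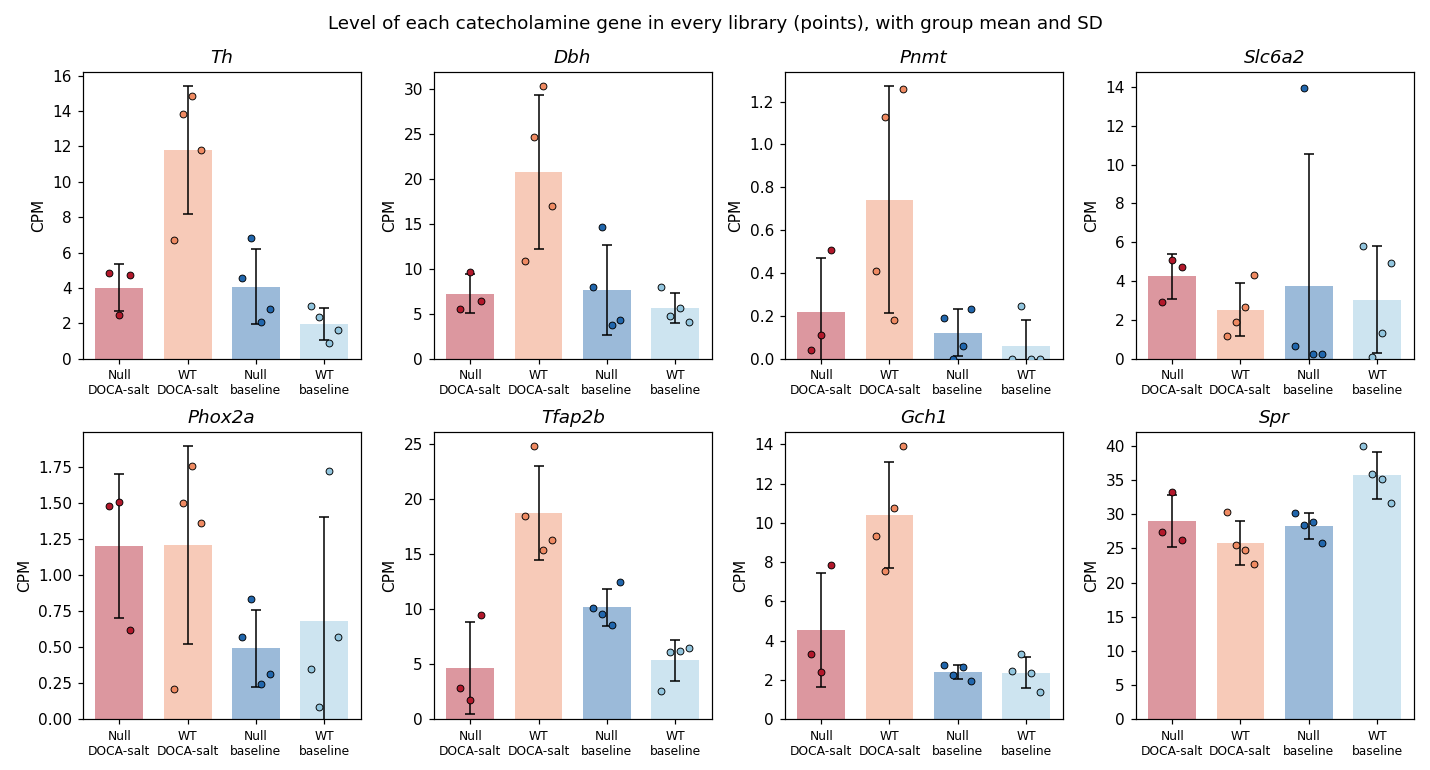
Level in CPM of each of the 8 genes in each library (points), with bars for the group mean and lines for the SD, in PRR RVLM-Null and WT mice given DOCA-salt and at baseline (Null stands for PRR RVLM-Null). The WT DOCA-salt libraries of Th lie between 6.69 and 14.9 CPM, above every WT baseline library, the highest of which is at 3.01 CPM.

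Tyrosine hydroxylase catalyses the rate-limiting step. Th was at 6.69, 13.8, 14.9 and 11.8 CPM in WT mice given DOCA-salt, against 3.01, 2.36, 0.899 and 1.62 CPM in baseline WT mice. The lowest DOCA-salt library was higher than the highest baseline library. The log2 fold change was 2.57 (SE 0.41, 95% CI 1.71 to 3.43, edgeR adjusted p = 0.00152). The exact two-sided permutation p = 0.0286 is the smallest that 4 against 4 libraries allow.

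Dbh, whose enzyme makes noradrenaline from dopamine, was at 10.9, 24.7, 30.4 and 17.0 CPM in WT mice given DOCA-salt and at 7.97, 4.81, 5.62 and 4.13 CPM in baseline WT mice. Again the groups were separate, with replicate 1 the lowest on DOCA-salt for both Th and Dbh. It rose by 1.88 on the log2 scale (SE 0.40, edgeR adjusted p = 0.0085).

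Pnmt, the enzyme that sets adrenaline neurons apart from noradrenaline neurons, was close to the limit of detection. It had 10, 27, 5 and 36 counts in WT mice given DOCA-salt (0.41, 1.13, 0.179 and 1.26 CPM) and 0, 3, 0 and 0 counts in baseline WT mice, where 3 counts amount to 0.21 to 0.244 CPM. Summed over libraries it was at 0.744 CPM on DOCA-salt and 0.0574 CPM at baseline, a ratio of 13.0 with a 95% counting interval of 4.27 to 64.2, which covers counting error only. The fitted log2 fold change of 3.54 (SE 1.11) passed narrowly (edgeR adjusted p = 0.0498), and the groups overlapped. Because Pnmt passed the filter in these DOCA-salt libraries alone, a difference was built into its selection. The call was lost when any of 8 single libraries was left out: adjusted p = 0.125 without WT baseline replicate 1, 0.123 without replicate 3 and 0.101 without replicate 4, 0.112 without WT DOCA-salt replicate 2 and 0.106 without replicate 4, and 0.0619, 0.0632 and 0.061 without PRR RVLM-Null baseline replicates 1, 3 and 4.

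Slc6a2, the transporter that returns noradrenaline to the cell, was at 1.19, 1.92, 2.69 and 4.33 CPM in WT mice given DOCA-salt and at 5.80, 0.0815, 1.35 and 4.94 CPM in baseline WT mice. Its baseline libraries spanned the whole DOCA-salt range. The log2 fold change was -0.27 with a 95% CI from -2.40 to 1.87 (edgeR adjusted p = 0.891), an interval that holds sizeable changes in both directions.

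Among the transcription factors, Phox2a, a homeodomain factor required for noradrenergic neurons, was at 0.205, 1.50, 1.76 and 1.36 CPM in WT mice given DOCA-salt and at 0.349, 0.0815, 1.72 and 0.567 CPM in baseline WT mice. The ranges overlapped almost fully (log2 fold change 0.82, SE 0.68, edgeR adjusted p = 0.46). Tfap2b, an AP-2 factor with a role in noradrenergic development, was at 18.4, 24.8, 15.4 and 16.2 CPM in WT mice given DOCA-salt and at 2.52, 6.11, 6.22 and 6.48 CPM in baseline WT mice. Every DOCA-salt library exceeded every baseline library by more than 2-fold. Tfap2b rose by 1.81 on the log2 scale (SE 0.40, edgeR adjusted p = 0.0101).

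The cofactor enzymes moved in opposite directions. Gch1, the rate-limiting enzyme of tetrahydrobiopterin synthesis, was at 9.35, 7.55, 10.8 and 13.9 CPM in WT mice given DOCA-salt and at 2.45, 3.34, 2.32 and 1.38 CPM in baseline WT mice. The ranges were separate, and Gch1 rose by 2.13 (log2 scale, SE 0.34, edgeR adjusted p = 0.00166). Spr was at 30.3, 25.4, 24.7 and 22.8 CPM in WT mice given DOCA-salt and at 40.0, 35.9, 35.2 and 31.7 CPM in baseline WT mice. Its ranges were separate too, with the DOCA-salt libraries below, and it fell by 0.47 on the log2 scale (SE 0.11, edgeR adjusted p = 0.0141). That fall was measured relative to the other protein-coding genes. With all counts of a library as its size, mitochondrial rRNA included, the log2 fold change of Spr was 0.11 (edgeR adjusted p = 0.458) while the median of all genes stood at 0.58, and Th, Dbh, Pnmt, Tfap2b and Gch1 still rose.

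**Figure D2:**
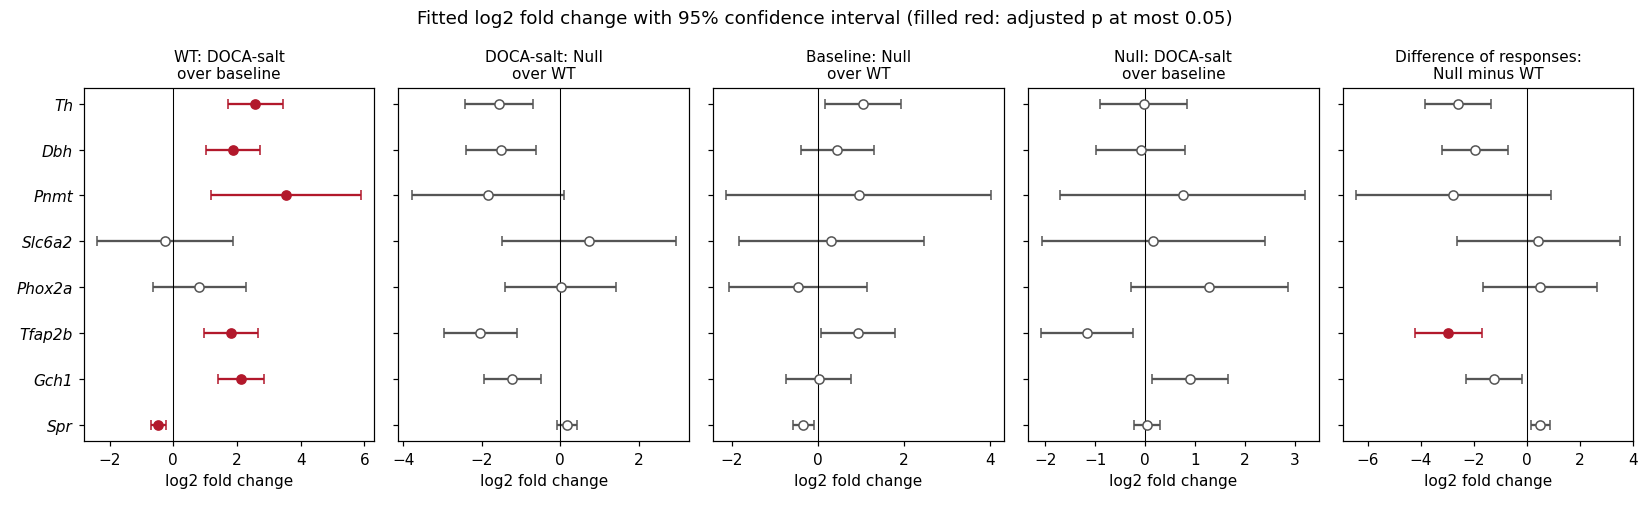
Fitted log2 fold change (points) with the 95% confidence interval (lines) of each gene in 5 comparisons, 1 per panel, filled red where the edgeR adjusted p is at most 0.05 (Null stands for PRR RVLM-Null). In the first panel Th, Dbh, Pnmt, Tfap2b, Gch1 and Spr are filled (Spr is at 0.11 and not called with all counts as library size), and in the last panel only Tfap2b, at -2.97, is filled.

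The second comparison asked whether PRR ablation altered these genes on DOCA-salt. Of the 8 genes, 0 passed (0.0202% of all genes did), although 4, Th, Dbh, Tfap2b and Gch1, had an unadjusted p under 0.05, as did 2140 of 14852 genes. The median log2 fold change was -1.22 for the 7 genes other than Pnmt and 0.0248 for all genes. DESeq2 called 4 of the 8 lower (1.89% of all genes in either direction) and edgeR's likelihood ratio test 3 (1.26%). The group of WT mice given DOCA-salt is shared with the first comparison, so its level enters both. Libraries of the 2 groups did not overlap for 3 of the 8 (Th, Dbh and Tfap2b), against 8.73% of all genes, and p = 0.0571 was the smallest the exact permutation test allowed with 3 against 4 libraries.

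Th was at 4.84, 2.48 and 4.74 CPM in PRR RVLM-Null mice given DOCA-salt and at 6.69, 13.8, 14.9 and 11.8 CPM in WT mice given DOCA-salt. No PRR RVLM-Null library reached the lowest WT library. Its log2 fold change was -1.56 (SE 0.41, 95% CI -2.43 to -0.69, edgeR adjusted p = 0.147).

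Dbh stood at 5.58, 9.69 and 6.49 CPM in PRR RVLM-Null mice given DOCA-salt and at 10.9, 24.7, 30.4 and 17.0 CPM in WT mice given DOCA-salt. These ranges did not overlap either, with a log2 fold change of -1.51 (SE 0.42, edgeR adjusted p = 0.157). Pnmt had 1, 3 and 9 counts in PRR RVLM-Null mice given DOCA-salt, against 10, 27, 5 and 36 counts in WT mice given DOCA-salt. The summed CPM ratio was 0.254 (95% counting interval 0.13 to 0.461), while the fitted log2 fold change of -1.84 had a 95% CI from -3.79 to 0.10, and the groups overlapped. Of its 13 counts in PRR RVLM-Null mice 9 were in the library labelled replicate 3, and without it the log2 fold change was -3.15 (edgeR adjusted p = 0.159).

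Tfap2b gave the smallest p of the 8. It was at 2.79, 1.73 and 9.42 CPM in PRR RVLM-Null mice given DOCA-salt and at 18.4, 24.8, 15.4 and 16.2 CPM in WT mice given DOCA-salt. The highest PRR RVLM-Null value was in the library labelled replicate 3, whose Atp6ap2 level was in the WT range. The log2 fold change was -2.04 with all libraries (SE 0.44, edgeR adjusted p = 0.0852) and -3.05 without that library (edgeR adjusted p = 0.00256). The fit without it rests on replicates 1 and 2 alone of PRR RVLM-Null mice given DOCA-salt, and it leaves out the highest value of the group. In that fit 1.14% of all genes passed in this comparison, 22 higher and 147 lower, and the calls of that setting are read beside this share.

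Gch1 had the same arrangement, with 3.32, 2.40 and 7.84 CPM in PRR RVLM-Null mice given DOCA-salt, with the highest in the library labelled replicate 3, and 9.35, 7.55, 10.8 and 13.9 CPM in WT mice given DOCA-salt. Only that library entered the WT range. Its log2 fold change was -1.22 (SE 0.35, edgeR adjusted p = 0.162), and -1.86 without that library (edgeR adjusted p = 0.0151). Th and Dbh did not show this arrangement, since that library lay between the other libraries of its group.

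For the other 3 genes the confidence interval held 0. Slc6a2 was at 2.91, 5.07 and 4.74 CPM in PRR RVLM-Null mice given DOCA-salt and at 1.19 to 4.33 CPM in WT mice given DOCA-salt (log2 fold change 0.73, 95% CI -1.47 to 2.94). Phox2a was at 1.48, 1.50 and 0.621 CPM in PRR RVLM-Null mice given DOCA-salt and at 0.205 to 1.76 CPM in WT mice given DOCA-salt, with a mean of 1.20 ± 0.50 CPM (SD, n = 3) in PRR RVLM-Null mice and 1.21 ± 0.69 CPM (SD, n = 4) in WT mice. Spr was at 27.4, 33.3 and 26.2 CPM in PRR RVLM-Null mice given DOCA-salt and at 22.8 to 30.3 CPM in WT mice given DOCA-salt (log2 fold change 0.17, 95% CI -0.08 to 0.42).

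At baseline, PRR RVLM-Null mice and WT mice were compared without DOCA-salt. By edgeR, 0 of the 8 genes passed, as did 0% of all genes. An unadjusted p under 0.05 was found for 3 of the 8 and for 1498 of 14852 genes, and 0 of the 8 were called by DESeq2 as well. Th was at 4.58, 6.84, 2.09 and 2.81 CPM in baseline PRR RVLM-Null mice and at 3.01, 2.36, 0.899 and 1.62 CPM in baseline WT mice. The mean was the higher one in PRR RVLM-Null mice but the ranges overlapped (log2 fold change 1.05, SE 0.41, edgeR adjusted p = 0.44).

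Tfap2b and Spr were the 2 genes of the 8 whose baseline ranges were separate, against 8.28% of all genes. Tfap2b was at 10.1, 9.52, 8.50 and 12.5 CPM in baseline PRR RVLM-Null mice and at 2.52, 6.11, 6.22 and 6.48 CPM in baseline WT mice (log2 fold change 0.93, edgeR adjusted p = 0.464). Spr was at 30.2, 28.4, 28.9 and 25.7 CPM in baseline PRR RVLM-Null mice and at 40.0, 35.9, 35.2 and 31.7 CPM in baseline WT mice (log2 fold change -0.34, edgeR adjusted p = 0.434). The exact permutation p = 0.0286 for each of the 2 is the smallest possible.

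Dbh was at 7.95, 14.7, 3.82 and 4.37 CPM in baseline PRR RVLM-Null mice, a range that contained all WT baseline libraries. Gch1 averaged 2.39 ± 0.37 CPM in PRR RVLM-Null mice and 2.37 ± 0.80 CPM in baseline WT mice (SD, n = 4 each). Slc6a2 was at 0.636, 13.9, 0.246 and 0.234 CPM in baseline PRR RVLM-Null mice, so that replicate 2 alone carried the mean of 3.76 CPM. That library also had the lowest summed level of cholinergic motor neuron markers of its group, 27.7 CPM against 439 to 1035 CPM in the other 3, and the part of motor neuron content in the Slc6a2 level was not tested. Pnmt had 3, 0, 1 and 3 counts and Phox2a was at 0.246 to 0.831 CPM in baseline PRR RVLM-Null mice.

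PRR RVLM-Null mice given DOCA-salt were next compared with baseline PRR RVLM-Null mice. Of the 8 genes, 0 passed by edgeR (1 did without the library labelled replicate 3, as did 10.7% of all genes). An unadjusted p under 0.05 was found for 2 of them (Tfap2b and Gch1) and for 3826 of 14852 genes. DESeq2 called 1, Tfap2b (11.4% of all genes). Among all genes 6.46% passed, so a count of 0 among 8 genes is near that share. The groups overlapped for all 8 genes, while 20.5% of all genes had separate groups. Th averaged 4.02 ± 1.33 CPM on DOCA-salt (SD, n = 3) and 4.08 ± 2.11 CPM at baseline (SD, n = 4), a log2 fold change of -0.03 with a 95% CI from -0.90 to 0.84. The upper bound of that interval is below the lower bound of the change in WT mice. These intervals are not adjusted for the number of genes. The direct test of the difference, given below, did not pass for Th by edgeR. Dbh averaged 7.25 ± 2.16 CPM on DOCA-salt (SD, n = 3) and 7.71 ± 5.01 CPM at baseline (SD, n = 4), with a log2 fold change of -0.09 (95% CI -0.98 to 0.80).

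Tfap2b had 2 low libraries in PRR RVLM-Null mice, at 2.79, 1.73 and 9.42 CPM on DOCA-salt against 10.1, 9.52, 8.50 and 12.5 CPM at baseline. The library labelled replicate 3 on DOCA-salt lay within the baseline range and the other 2 far below it. The log2 fold change was -1.16 with all libraries (SE 0.44, edgeR adjusted p = 0.111) and -2.17 without that library (edgeR adjusted p = 0.00265). Gch1 was at 3.32, 2.40 and 7.84 CPM on DOCA-salt and 2.74, 2.24, 2.65 and 1.95 CPM at baseline in PRR RVLM-Null mice (log2 fold change 0.89, SE 0.36, edgeR adjusted p = 0.134, and 0.25 with an adjusted p of 0.635 without the library labelled replicate 3). Spr was at 26.2 to 33.3 CPM on DOCA-salt and 25.7 to 30.2 CPM at baseline in PRR RVLM-Null mice, and Phox2a at 0.621 to 1.50 CPM and 0.246 to 0.831 CPM (log2 fold change 1.29, 95% CI -0.28 to 2.86). Pnmt had a log2 fold change of 0.76 with all libraries (95% CI -1.70 to 3.21) and -0.55 without the library labelled replicate 3, so its direction turned with that library. For Slc6a2 the log2 fold change was 0.16 with all libraries and 3.47 without PRR RVLM-Null baseline replicate 2 (edgeR adjusted p = 0.0483, where 3.52% of all genes passed).

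The difference between the DOCA-salt responses of PRR RVLM-Null and WT mice was tested in the same model. It passed for 1 of the 8 genes, Tfap2b, against 0.512% of all genes. For Tfap2b the response in PRR RVLM-Null mice minus that in WT mice was -2.97 on the log2 scale (SE 0.59, 95% CI -4.23 to -1.71, edgeR adjusted p = 0.0355). The order of the 4 groups was reversed between cohorts, since PRR RVLM-Null mice were below WT mice given DOCA-salt (mean 4.65 ± 4.17 CPM, n = 3, against 18.7 ± 4.27 CPM, n = 4) and above them at baseline (10.2 ± 1.69 CPM against 5.33 ± 1.88 CPM, SD, n = 4 each). That call was lost in 10 of the 15 fits without a library, with adjusted p from 0.0576 without PRR RVLM-Null baseline replicate 2 to 0.0975 without WT DOCA-salt replicate 2, while the difference stayed between -3.98 and -2.57. The value of -3.98 (edgeR adjusted p = 0.00172) was that without the library labelled replicate 3, where 2.31% of all genes passed.

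For Th the difference was -2.60 (SE 0.58, edgeR adjusted p = 0.0554), just short of passing, and it passed without WT DOCA-salt replicate 1 (adjusted p = 0.0329), WT DOCA-salt replicate 4 (0.048) or PRR RVLM-Null DOCA-salt replicate 3 (0.0424), with 1.48%, 1.73% and 2.31% of all genes passing in these 3 fits. For Dbh it was -1.96 (SE 0.58, edgeR adjusted p = 0.117), for Gch1 -1.24 (adjusted p = 0.224, or 0.0297 without PRR RVLM-Null DOCA-salt replicate 3) and for Spr 0.50 (adjusted p = 0.143). Pnmt gave -2.78 with a 95% CI from -6.46 to 0.89, and -4.09 without PRR RVLM-Null DOCA-salt replicate 3 (adjusted p = 0.224). Slc6a2 gave 0.43 (95% CI -2.66 to 3.51) and Phox2a 0.47 (95% CI -1.68 to 2.62). DESeq2 and the likelihood ratio test each called 3 of the 8, Th, Dbh and Tfap2b, on the negative side (3.82% and 3.06% of all genes in either direction).

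Levels can be compared between genes only per length. Per kilobase, Spr was the highest of the 8 in baseline WT mice, at 10.1 ± 0.97 CPM per kb, and Dbh in WT mice given DOCA-salt, at 7.71 ± 3.19 CPM per kb, where Spr was at 7.28 ± 0.90 CPM per kb and the 2 were within their spread (SD, n = 4 each). In WT mice given DOCA-salt the order went on with Th (4.99 ± 1.54), Tfap2b (2.95 ± 0.67), Gch1 (1.66 ± 0.43), Pnmt (0.644 ± 0.46), Phox2a (0.593 ± 0.34) and Slc6a2 (0.403 ± 0.21 CPM per kb). The last 3 did not differ beyond their spread. In baseline WT mice Dbh (2.09 ± 0.62), Tfap2b (0.841 ± 0.30) and Th (0.834 ± 0.39 CPM per kb) followed Spr, with Tfap2b and Th within their spread. Among PRR RVLM-Null mice Spr was also the highest, at 8.17 ± 1.07 on DOCA-salt (SD, n = 3) and 7.98 ± 0.53 at baseline (SD, n = 4), with Dbh at 2.69 ± 0.80 and 2.86 ± 1.86, and Th at 1.70 ± 0.56 and 1.73 ± 0.89 CPM per kb in the same order. Spr, the most abundant of the 8 at baseline, serves every cell that makes tetrahydrobiopterin.

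The relation between Th and Dbh within groups was positive in both cohorts but did not pass after adjustment. Over all 15 libraries, after the group means of log2 CPM were removed, Pearson's r between the 2 genes was 0.63, as a description. Within the 8 baseline libraries r was 0.76 (Spearman's rho 0.71) and the exact permutation p = 0.0503, or 0.713 adjusted over the 56 relations computed (28 pairs of genes in each cohort). Without the 2 libraries farthest from the median of Th, r was 0.93 (exact permutation p = 0.0556). Within the 7 DOCA-salt libraries r was 0.37 (rho 0.39, exact permutation p = 0.41), so the relation was not shown there. Of the 56 relations 0 passed after adjustment, the smallest adjusted p being 0.713, and 2 had an unadjusted p under 0.05. These were Pnmt with Slc6a2 (r = -0.84, rho = -0.95, exact p = 0.0312) and Tfap2b with Spr (r = -0.80, rho = -0.86, exact p = 0.033), both at baseline. Without the 2 farthest libraries they stood at r = -0.67 (exact permutation p = 0.667) and r = -0.69 (exact permutation p = 0.0833). Pnmt had 3 counts or fewer in every baseline library, so its relation rests on values at the limit of detection.

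Of 13931 genes with a mean of at least 1 CPM, the 5 whose deviations were most like those of Th and Dbh over the 15 libraries were Pear1, Flt4, Adm, Lrrc1 and Ajm1, with a mean r of 0.81, 0.79, 0.77, 0.76 and 0.75. The points share library, depth and scaling. Of the 8 genes, Slc6a2 came next, at rank 347 with a mean r of 0.53, followed by Gch1 at rank 5230 (0.11), Spr at 7377 (-0.01) and Tfap2b at 9738 (-0.14). Pnmt and Phox2a had a mean below 1 CPM and were not ranked.

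The pathway around these genes was described with lists of other genes. The counts of this and the following lists in WT mice given DOCA-salt are read beside the 5.48% of all genes that rose and the 6.12% that fell. For storage, uptake and breakdown, 4 of 11 tested genes rose and 0 fell in WT mice given DOCA-salt, with a median log2 fold change of 0.22. Ddc, aromatic amino acid decarboxylase, was at 42.3, 29.0, 51.7 and 64.3 CPM in WT mice given DOCA-salt and at 7.12 to 8.25 CPM in baseline WT mice (log2 fold change 2.57, edgeR adjusted p = 0.000157). Slc18a2, the vesicular monoamine transporter, was at 26.2 to 64.7 CPM on DOCA-salt and 0.244 to 3.57 CPM at baseline in WT mice (4.28, adjusted p = 0.00456). The other 2 were Slc22a3, an extraneuronal monoamine transporter (4.28), and Maob, monoamine oxidase B (0.78). Slc22a3 had 4 counts or fewer in every baseline library and passed the filter on low counts in DOCA-salt libraries alone, so a difference was built into its selection. Ddc and Slc18a2 are used by catecholamine and serotonin neurons alike.

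Among 7 other genes of tetrahydrobiopterin synthesis and recycling, 1 rose and 1 fell. Gchfr, the feedback regulator of GTP cyclohydrolase, rose by 3.38 (log2 scale, adjusted p = 0.00603) to 0.834 to 2.34 CPM in WT mice given DOCA-salt, against 0 to 0.3 CPM in baseline WT mice. It had 5 counts or fewer in every baseline library. Like Pnmt, Gchfr passed the filter on low counts in WT mice given DOCA-salt alone, so a difference was built into its selection. Qdpr, which recycles the cofactor, fell by 0.58 on the log2 scale (adjusted p = 0.00749) and was at 175 to 240 CPM in WT mice given DOCA-salt and 251 to 336 CPM in baseline WT mice. Pcbd2, which also acts in the recycling of the cofactor, had a log2 fold change of -0.38 and did not pass (adjusted p = 0.068).

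Of 7 tested factors of noradrenergic identity, 2 rose and 0 fell, Gata2 by 0.94 (adjusted p = 0.0313) and Lmx1b by 1.53 (adjusted p = 0.0179), and Lmx1b is also a factor of serotonergic neurons. Gata3, another GATA factor, had a log2 fold change of 1.48 and did not pass (adjusted p = 0.0687). The count ran from 0 to 3 when single libraries were left out. Of 9 other genes known in C1 neurons, 4 rose and 0 fell. Cartpt, a peptide precursor, rose by 1.67 (adjusted p = 0.00397), Agtr1a, the angiotensin type 1a receptor, by 2.91 (adjusted p = 0.0276), Penk, the enkephalin precursor, by 1.60 (adjusted p = 0.0344) and Npy, neuropeptide Y, by 2.20 (adjusted p = 0.0388). Agtr1a had 19 counts or fewer in every baseline library and passed the filter on low counts in DOCA-salt libraries alone. The count of this list ran from 1 to 4 without single libraries. In PRR RVLM-Null against WT mice given DOCA-salt 0 genes of these 4 lists passed by edgeR (0.0202% of all genes did). Without PRR RVLM-Null DOCA-salt replicate 3 Ddc (-1.87, adjusted p = 0.00921), Slc22a3 (-2.89), Penk (-2.31) and Agtr1a (-3.93) fell. In that fit 1.14% of all genes passed, 22 higher and 147 lower.

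In PRR RVLM-Null mice, 1 gene of these 4 lists (11, 7, 7 and 9 tested genes) rose with DOCA-salt. Among all genes 6.46% passed in either direction in this comparison. The gene was Ddc, which rose by 1.29 on the log2 scale (edgeR adjusted p = 0.0267). Without the library labelled replicate 3 its log2 fold change was 0.74 (edgeR adjusted p = 0.0867).

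**Figure D3:**
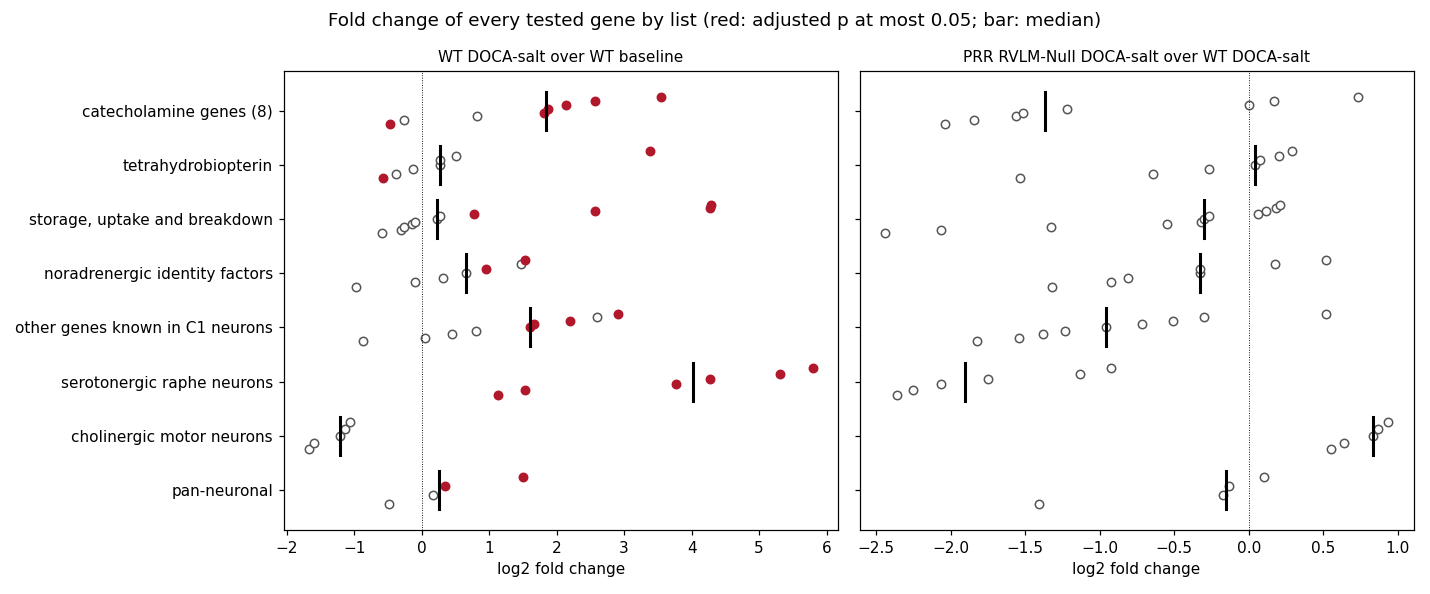
Fitted log2 fold change of every tested gene of each list (points, red where the edgeR adjusted p is at most 0.05) with the list's median (bar, Pnmt included for the 8 genes), for WT DOCA-salt over WT baseline on the left and PRR RVLM-Null DOCA-salt over WT DOCA-salt on the right. The 6 serotonergic genes have the highest median on the left, 4.02, and 0 genes are red on the right.

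The labelled tissue was checked against markers of C1 neurons and of their neighbours. Th and Dbh were detected in all 15 libraries, while Pnmt, the marker that defines adrenaline neurons, had 0 counts in 4 of them. Markers of another monoamine cell type moved with the catecholamine genes. Of 6 markers of serotonergic raphe neurons, which lie next to the RVLM, 6 rose in WT mice given DOCA-salt (5 to 6 without single libraries), with a median log2 fold change of 4.02. Of these 6, Lmx1b and Slc22a3 are also in the lists above. Their summed level was 22.0, 22.1 and 96.6 CPM in PRR RVLM-Null mice given DOCA-salt and 129 to 273 CPM in WT mice given DOCA-salt. At baseline it was 21.3 to 33.0 CPM in PRR RVLM-Null mice and 11.0 to 24.6 CPM in WT mice. Much of the baseline sum was Htr1a, the serotonin 1A receptor, which other neurons also express. Htr1a was at 9.76, 8.38 and 15.7 CPM in PRR RVLM-Null mice given DOCA-salt and at 17.0 to 20.5 CPM in baseline PRR RVLM-Null mice, so the sum and Tph2 did not move alike in that genotype.

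Tph2, the serotonin-synthesizing enzyme that defines these neurons, was at 91.2, 63.1, 97.8 and 170 CPM in WT mice given DOCA-salt and at 1.40, 1.96, 3.00 and 4.30 CPM in baseline WT mice (log2 fold change 5.32, edgeR adjusted p = 0.000179). Slc6a4, the serotonin transporter, rose by 5.79 (adjusted p = 0.00192) and Fev, the factor of serotonergic identity, by 3.77 (adjusted p = 0.00355). Fev, like Slc22a3, passed the filter on low counts in DOCA-salt libraries alone and had 10 counts or fewer in every baseline library. In PRR RVLM-Null mice 2 of the 6 markers rose with DOCA-salt and 0 fell (median log2 fold change 2.20), where 6.46% of all genes passed. Tph2 was at 6.69, 6.80 and 48.9 CPM in PRR RVLM-Null mice given DOCA-salt and at 1.34, 2.11, 2.59 and 1.33 CPM in baseline PRR RVLM-Null mice, where every DOCA-salt library was the higher. It rose by 3.46 (edgeR adjusted p = 0.00982), and by 1.86 without the library labelled replicate 3 (adjusted p = 0.012). Slc6a4 rose by 3.58 (adjusted p = 0.0382), a call that was lost without that library (1.73, adjusted p = 0.207), while Htr1a was then called lower (-1.07, adjusted p = 0.0112, against -0.76 and 0.0597 with all libraries). The library with the most Tph2 in this group, labelled replicate 3, is also the one with the most Tfap2b, Gch1 and Pnmt. Against WT mice given DOCA-salt, Tph2 had a log2 fold change of -2.36 (edgeR adjusted p = 0.131), and -3.97 without that library (edgeR adjusted p = 0.0021).

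**Figure D4:**
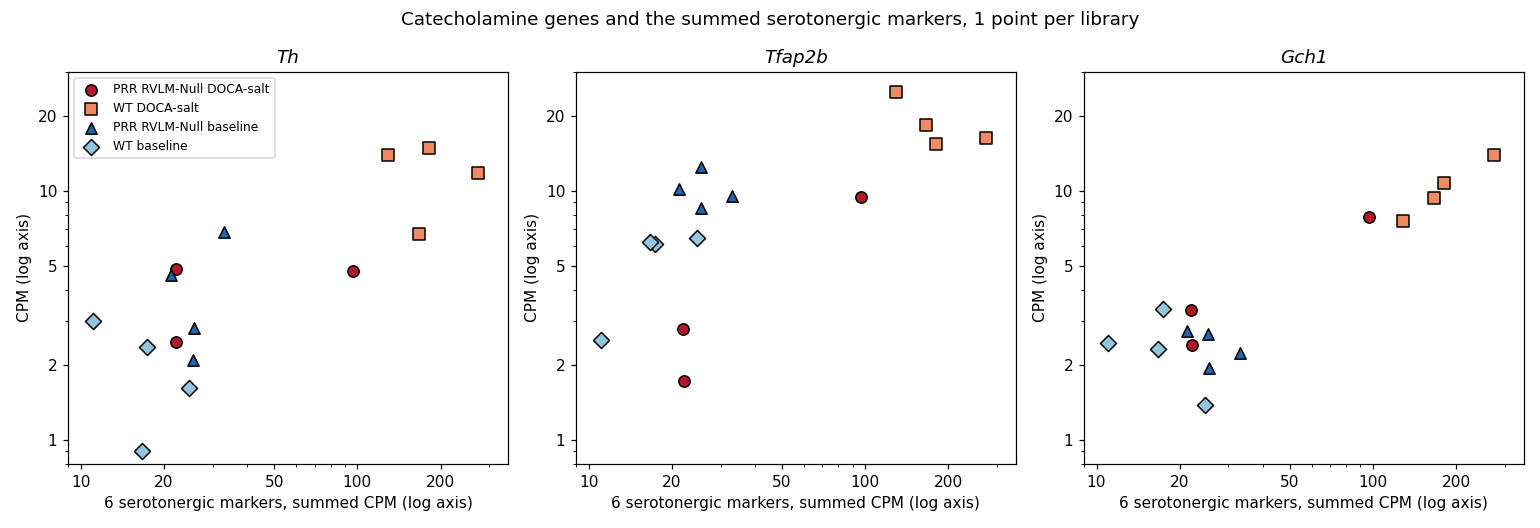
Level of Th, Tfap2b and Gch1 in CPM (vertical, log axis) against the summed CPM of 6 serotonergic markers (horizontal, log axis), 1 point per library, with a colour and shape for each of the 4 groups. The WT DOCA-salt libraries lie at 129 to 273 CPM on the horizontal axis, 1 PRR RVLM-Null DOCA-salt library lies at 96.6 CPM and the other 10 libraries lie at 33.0 CPM or less.

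For Gch1 the 5 libraries with the highest serotonergic sum were the 5 with the highest level, at 7.55 CPM or more, and the other 10 were at 3.34 CPM or less. For Th they were not, since 1 PRR RVLM-Null baseline library (6.84 CPM) had more Th than WT DOCA-salt replicate 1 (6.69 CPM) with a serotonergic sum of 33.0 CPM. Within the 4 WT DOCA-salt libraries, Th was highest in replicate 3 and the serotonergic sum in replicate 4. The part of serotonergic RNA, or of where the punch was taken, in the change of these genes was not tested.

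Cholinergic motor neuron markers stood on the opposite side. All 5 tested had a negative log2 fold change in WT mice given DOCA-salt, and 0 passed (median -1.21). Their summed level was 498 to 1773 CPM in PRR RVLM-Null and 76.4 to 1256 CPM in WT mice given DOCA-salt, and 27.7 to 1035 CPM in PRR RVLM-Null and 1169 to 1752 CPM in baseline WT mice. Chat, choline acetyltransferase, was at 12.3 CPM in WT DOCA-salt replicate 3, the library with the most Th and Dbh, and at 174 CPM in WT DOCA-salt replicate 1, the one with the least of both. Among the baseline libraries, PRR RVLM-Null replicate 2 had the least Chat (4.54 CPM) and the most Th and Dbh. The remaining groups went the other way for Dbh. Of the baseline WT libraries, replicate 4 had the lowest summed level of these markers (1169 CPM) and the least Dbh (4.13 CPM). Of the PRR RVLM-Null DOCA-salt libraries, replicate 2 had the highest summed level (1773 CPM), the most Dbh (9.69 CPM) and the least Th (2.48 CPM). The part of the motor neuron content of the punches in these levels was not tested. Of 4 pan-neuronal genes 2 rose and 0 fell in WT mice given DOCA-salt (median 0.25), Syt1 by 1.49 and Snap25 by 0.34. Among the other cell types, 1 of 3 astrocyte genes rose (Gfap, 2.09), 1 of 3 microglial genes fell (P2ry12, by 0.89) and 3 of 3 hemoglobin genes fell. By contrast 0 of 3 oligodendrocyte, 0 of 3 endothelial, 0 of 2 cerebellar and 0 of 1 dopaminergic genes passed in that comparison. Slc6a3, the dopamine transporter that defines dopamine neurons, was below the filter.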

How the data were processed

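The members and the gene lists were chosen with earlier results of these data known. The deposited table holds the raw counts that the authors made per gene for 15 libraries, without normalization. Their libraries came from a stranded SMART-seq kit for low RNA input, and their reads were aligned by STAR to the mouse reference (GRCm38.p6). How reads were counted is not given in the sources used here. Tables of the authors' own fold changes, FDR and RPKM were not used.

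Here edgeR 4.0.16 (R 4.3.3) was run on the counts as deposited. Tested were the 14852 of 21926 protein-coding genes that passed 1 CPM in at least 1 library. TMM factors scaled the libraries, the model had a term for each group, and all libraries shared 1 estimate of spread. Levels are CPM over tested counts with these factors. The fit was tested on simulated data. For each member a two-sided exact permutation test on log2 CPM (prior count 2) was added, and correlations were permuted exactly within groups. The labels do not say that libraries came from separate animals, so p-values measure the spread between these samples. Intervals on counts cover counting error only.

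Genes to name were the 8 members, up to 3 per list with the smallest p in WT mice, and Tph2, Slc6a4, Fev, Chat, Ddc, Slc18a2 and Agtr1a. Of the cell type lists, some of these genes are given only in their list's counts, and 1 gene is not reported here. Npy and Htr1a were named after their values were seen. Gene positions follow Gencode on GRCm38 and promoters RefSeq on GRCm38.p6.

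Alternatives were DESeq2 1.42.0, edgeR's likelihood ratio test, limma 3.58.1 voom with quality weights, RLE factors, library size alone, filterByExpr, no filter, every biotype, a fit of the compared groups alone, a replicate block, a sex pattern term, a 2-fold limit and each library left out. Using all counts as library size, and recounting lists without single libraries, were added after the data were seen.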

Additional observations from a re-analysis of the deposited data

Results flagged for a closer look

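Of 24 groups of 4 libraries (8 genes in 3 groups), 3 had a library far from the others by Dixon's test at the 95% level, which chance gives in about 1 of 20 groups. Slc6a2 was at 13.9 CPM in PRR RVLM-Null baseline replicate 2. Tfap2b was at 2.52 CPM in WT baseline replicate 1, below the other libraries of its group. Pnmt was at 0.244 CPM in WT baseline replicate 2, where it had 3 counts and the other libraries 0. With 3 of 4 values at 0 any count stands apart by this test, so nothing about the library follows from it.

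The DOCA-salt response of Tfap2b differed between PRR RVLM-Null and WT mice by -2.97 on the log2 scale in the test of the difference itself (edgeR adjusted p = 0.0355), with PRR RVLM-Null mice lower on DOCA-salt and higher at baseline.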

How the results depend on the processing

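Pnmt had 36 counts or fewer and Phox2a 49 or fewer in every library, which limits how precisely both are known. Cohort and DOCA-salt cannot be told apart. In WT mice given DOCA-salt against baseline, 5 to 6 genes passed without single libraries (5.53% to 13.8% of all genes). In PRR RVLM-Null against WT mice given DOCA-salt it was 4 with DESeq2 (1.89% of all genes), 3 with the likelihood ratio test (1.26%), 1 without a filter (0.257%), 4 with all counts as library size (4.40%) and 0 to 2 without single libraries (0% to 1.14%). At baseline it was 0 under every alternative. In PRR RVLM-Null mice with and without DOCA-salt it was 1 with DESeq2 (11.4%), 1 with all counts as library size (33.7%) and 0 to 1 without single libraries (1.57% to 10.7%). For the difference of responses it was 3 with DESeq2 (3.82%), 3 with the likelihood ratio test (3.06%), 2 with library size alone (2.02%), 2 without a filter (0.827%), 3 with all counts as library size (7.77%) and 0 to 3 without single libraries (0% to 2.31%). The cause was not tested.

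In WT mice, Pnmt was also not called without a filter (adjusted p = 0.0598) or in a fit of the compared groups alone (0.0545), nor Spr without a filter (0.0506), and DESeq2 gave Pnmt no adjusted p. Library size alone moved the median of all genes to 0.12, with 1588 higher and 416 lower calls against 814 and 909, and all counts as library size moved it to 0.58, with 10532 higher and 83 lower. With the replicate block, 5, 0, 0, 0 and 1 genes passed in the 5 comparisons in the order of the text. Of all genes, 10.4%, 0.0404%, 0%, 4.43% and 0.525% passed in that setting, in the same order. With the block, Pnmt in WT mice was not called (adjusted p = 0.079). Same-numbered libraries of different groups had a mean correlation of 0.0104 and differently numbered ones of -0.00292, so no pairing by number was seen. Of 21 same-numbered pairs 9 had a correlation over 0.1, a share that was not computed for the other pairs. Of the 56 correlations, 0 passed after adjustment.

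Of the fold changes that reversed, none had passed except that of Spr in WT mice, which was 0.11 with all counts as library size. In WT mice Slc6a2 was 1.19 with voom, 0.32 with all counts and -0.66 to 0.26 without single libraries. In PRR RVLM-Null against WT mice given DOCA-salt Phox2a was -0.00216 with the likelihood ratio test, -0.00231 with RLE factors, -0.0556 with library size alone, -0.00235 with filterByExpr, -0.0337 without a filter, -0.0122 with every biotype, -0.00999 with the compared groups alone, -0.064 with the sex term, -0.12 with all counts and -0.34 to 0.30 without single libraries. Between genotypes at baseline Slc6a2 was -0.65 with voom, -0.45 with the block and -2.99 to 0.83 without single libraries, Phox2a 0.42 with voom and -0.84 to 0.56, Gch1 -0.11 with voom, -0.00229 with the block and -0.17 to 0.22, and Dbh -0.0596 to 0.68. In PRR RVLM-Null mice with against without DOCA-salt Th was 0.17 with voom, 0.0729 with the sex term, 0.27 with all counts and -0.25 to 0.35 without single libraries, Dbh 0.33, 0.00701 and 0.22 in the same settings and -0.36 to 0.44, Spr -0.018 with the block and -0.0781 to 0.10, Pnmt -0.55 to 1.26 and Slc6a2 -0.23 to 3.47. For the difference of responses Phox2a was -0.23 with voom and -0.55 to 0.84 without single libraries, and Slc6a2 -0.10 to 3.72.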
